A study of Mus musculus with 2 samples.

Results

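The voltage-gated sodium and calcium channel genes were followed across the cell classes of the adult mouse striatum by single-cell RNA sequencing (scRNA-seq). The set held every gene in the count tables whose symbol starts with Scn and a digit, or with Cacn, which gave 40 of 32285 genes. Reported here are 38 of them, 12 of sodium channels and 26 of calcium channels, and all counts of channel genes are over these 38. The rule reads symbols only, and the set was picked with earlier results of these data known. Voltage-gated sodium channels open on depolarization and carry the rising phase of the action potential. Their alpha subunits form the pore, and their beta subunits adjust gating and anchor the channel at the membrane. Voltage-gated calcium channels turn depolarization into calcium entry, which triggers transmitter release in nerve terminals, contraction in muscle and calcium signalling in many other cells. An alpha-1 subunit forms the pore, alpha-2-delta and beta subunits bring it to the membrane, and several gamma subunits are better known as partners of AMPA-type glutamate receptors than of calcium channels.

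The tissue was dissociated striatum of untreated mice with no transgene or agent named in the labels, sequenced as replicates 1 and 2 of 1 condition on the 10x Genomics platform, in which each captured mRNA molecule carries a unique molecular identifier (UMI). The labels give the strain as C57/Bl6J in 1 field and C57BL/6NTac in another, and the age as 8 to 10 weeks. The suspension was labelled as glia enriched and had passed a fine filter, so the neurons in these libraries are those that came through a preparation that favours other cells. The methods of the study name several mice of a slightly younger age for this preparation, and neither source says how mice were divided between the libraries. The labels name versions 2 and 3 of the 3′ kit without saying which library was made with which.

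Library 1 held 6978 barcodes with a median of 3852 UMIs and library 2 held 5437 barcodes with a median of 5375, and 9 barcode sequences occurred in both. Of the 12007 cells kept, 11792 fell into 11 classes named from marker genes, from 64 ependymal-like cells to 1309 astrocyte-like cells in a library. The channel genes took no part in the clustering. Neuron-like cells were 382 in library 1 and 259 in library 2. Of these 641 cells, 244 lay in 2 subclusters led by microglial or astrocytic genes, 191 in library 1 and 53 in library 2. Subclusters with a glial marker among their 10 leading genes also held 564 of 1067 neuroblast-like cells, 497 of them in library 1, and 170 of 434 mural-like cells. Of the 564, 162 cells were counted for *Sox9* alone, in a subcluster led by *Vim* and *Igfbp5*. The name glia-led below follows this rule and does not show that the RNA of such cells is foreign. The summed level of 8 oligodendrocyte markers in neuron-like cells was 2564 and 1532 CPM, the UMIs of a gene scaled to a common total of UMIs, in libraries 1 and 2, against 75176 and 69294 CPM in oligodendrocyte-like cells. That of 10 astrocyte markers in neuron-like cells was 2052 and 769 CPM, against 20019 and 22110 CPM in astrocyte-like cells. That of 8 microglial markers was 378 and 407 CPM, against 25068 and 28175 CPM in microglia-like cells. That of 4 haemoglobin and erythroid markers was 2791 and 846 CPM in neuron-like and 7090 and 165 CPM in endothelial-like cells, and that of 8 neuroblast markers in ependymal-like cells was 4940 and 2525 CPM. Whether these marker RNAs came from other cells, and their part in the values below, was not tested. Counts of genes without the glia-led subclusters are given where they are drawn on. Levels and shares of cells are not given without them. The classes come from a clustering resolution of 0.32, chosen after the counts had been examined, and counts at the planned 0.08 are given beside the main ones.

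Levels are given in CPM over all UMIs of a class in a library, in library 1 and then library 2. Because the 3′ kit reads 1 end of each transcript, a level is not divided by gene length, and levels of different genes are not compared. Fold changes are on the log2 scale with their standard error (SE), from edgeR's quasi-likelihood test on the sums per library and class with the library as a block, and p-values are adjusted over all 15517 genes tested. Because TMM scaling corrects for a few genes that fill a class, such as myelin genes in oligodendrocyte-like cells, a fold change can differ from the ratio of the CPM values. Both libraries come from the same kind of sample, and it is not given whether they hold separate mice. These p-values therefore measure only how differences between classes vary between these 2 libraries. A shift shared by all classes of a library is taken up by the block, and the spread of a gene is estimated over all classes together. Where libraries of different classes are said to lie apart or not to overlap, the genes had already passed the test between those classes. Such statements are no separate evidence, and the share of all genes without overlap was not counted.

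Channel genes were most often higher in neuron-like cells. Against the mean of the other 10 classes, 28 of the 32 channel genes tested were higher in neuron-like cells, where 27% of all genes tested were, and 0 were lower, where 25.5% of all genes were. The count of 0 held without adjustment in edgeR and in DESeq2, where it was 0 as well. The median log2 fold change of the 32 was 3.72, and that of all genes tested was -0.17. At a resolution of 0.08 the counts were 29 and 0. A further 6 genes were too low to test. A gene can enter the test by being high in a single class, which holds for the background as well.

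The class of oligodendrocyte precursor cells (OPC-like) came next, with 18 of 32 genes higher (background 25.8%) and 3 lower (18.1%). Neuroblast-like cells followed with 14 higher (23.9%) and 0 lower (21.4%). Lower genes there were 0 by edgeR without adjustment and by DESeq2 too, but 7 at a resolution of 0.08, where the 451 progenitor-like and 149 ependymal-like cells lay in the same cluster. In several other classes the balance lay the other way. Oligodendrocyte-like cells had 5 higher (34.8%) and 15 lower (21.4%), microglia-like cells 4 higher (33.6%) and 14 lower (21.6%), and endothelial-like cells 1 higher (26.5%) and 11 lower (18.9%), where DESeq2 gave 17 lower. Astrocyte-like cells were close to the background, with 7 higher (28.2%) and 9 lower (22.4%), counts that became 13 and 2 with doublets kept and 12 and 4 at a clustering resolution of 0.08. The remaining classes had 7 higher and 0 lower in ependymal-like cells (17.3% and 10.3%, with 4 lower by edgeR without adjustment and 0 by DESeq2), 7 and 6 in mural-like cells (19.1% and 14.4%), 5 and 8 in progenitor-like cells (26.1% and 24.1%), and 2 and 7 in macrophage-like cells (18.2% and 15.6%).

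**Figure D1:**
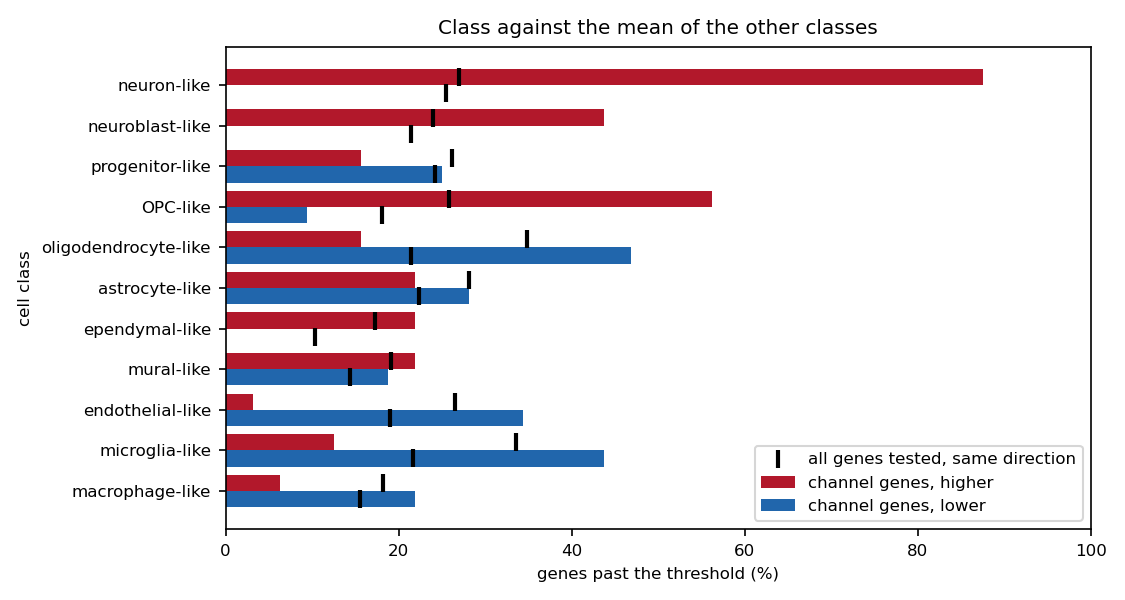
Percentage of the 32 tested channel genes past the threshold in each cell class against the mean of the other classes (bars, red higher and blue lower), with black ticks for the percentage of all 15517 genes tested in the same direction. The red bar of neuron-like cells, 28 genes, lies far to the right of its tick at 27%, and the blue bar of oligodendrocyte-like cells, 15 genes, lies to the right of its tick at 21.4%.

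A stricter reading asked whether a gene was higher in 1 class than in each of the other 10, by 55 pairwise tests between classes. This held for 22 of the 32 channel genes, and for 40.3% of all genes tested. Neuron-like cells led 18 of the 32 genes, against 5.61% of all genes tested. OPC-like, neuroblast-like, ependymal-like and oligodendrocyte-like cells led 1 each, against 1.53%, 1.57%, 1.92% and 7.38% of all genes. By edgeR or DESeq2, no channel gene was led by astrocyte-like, endothelial-like, macrophage-like, microglia-like, mural-like or progenitor-like cells, which led 3.22%, 4.4%, 2.16%, 4.53%, 3.47% and 4.48% of all genes. At a resolution of 0.08, 24 were led by 1 class, 21 of them as here. Without the 2 glia-led subclusters of neuron-like cells, 25 genes were led by 1 class, the same 22 together with *Scn3b*, *Cacnb3* and *Cacnb4*. Without those of neuroblast-like and mural-like cells as well, 23 were led, and *Cacng5* was not.

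**Figure D2:**
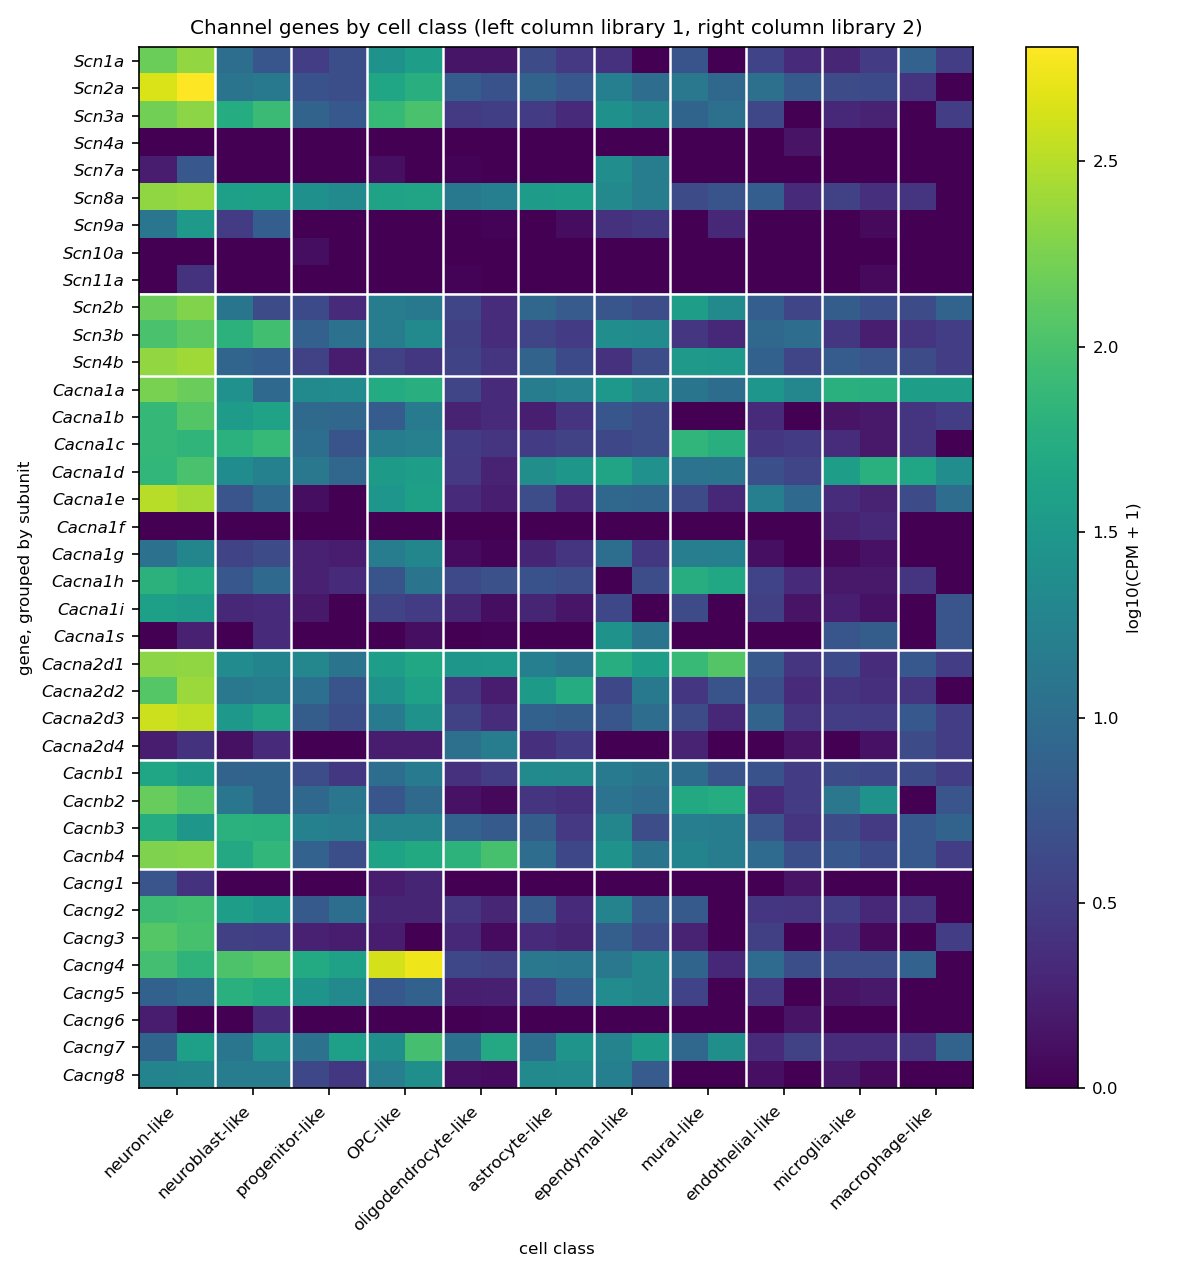
Levels of the 38 channel genes, as log10(CPM + 1), in 11 cell classes, with library 1 in the left and library 2 in the right column of each class and white lines between subunit groups. The bright columns at the left are neuron-like cells, the bright pair in the *Cacng4* row is the OPC-like class, and the dark rows include the 6 genes too low to test.

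Of 9 sodium channel alpha subunits, 6 could be tested, and neuron-like cells led 5 of them. *Scn2a*, encoding the Nav1.2 channel of axons, stood at 444 and 642 CPM in neuron-like cells and at 43.4 and 56.1 CPM in OPC-like cells, the next class. The log2 difference was 3.53 (SE 0.22, adjusted p = 9.69e-11). *Scn1a*, encoding Nav1.1, a channel known for firing in interneurons, read 149 and 224 CPM in neuron-like and 26.0 and 35.5 CPM in OPC-like cells, a log2 difference of 2.66 (SE 0.27, adjusted p = 1.21e-07). *Scn8a*, encoding Nav1.6 of the axon initial segment and nodes, read 222 and 238 CPM in neuron-like and 40.9 and 42.7 CPM in OPC-like cells, which gave 2.53 (SE 0.22, adjusted p = 1.04e-08). In all 3 genes both libraries of OPC-like cells lay below both libraries of neuron-like cells. *Scn8a* was also present across glia, with 34.4 and 36.3 CPM in astrocyte-like and 12.6 and 15.3 CPM in oligodendrocyte-like cells. Its level in oligodendrocyte-like cells was above the mean of the other classes by 0.51 (SE 0.17, adjusted p = 0.0155), but the sign turned to -0.01 when library sizes were used without TMM scaling.

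*Scn3a*, encoding Nav1.3, which is prominent in the developing brain, was spread over more classes. It read 161 and 206 CPM in neuron-like, 75.0 and 99.4 CPM in OPC-like and 54.5 and 80.4 CPM in neuroblast-like cells, with a log2 difference of 1.16 between the upper pair of classes (SE 0.24, adjusted p = 0.000389). *Scn9a*, encoding Nav1.7, a channel known from pain-sensing neurons, was sparse, with 18 and 39 UMIs in neuron-like cells (11.7 and 31.3 CPM) and 6 and 5 UMIs in neuroblast-like cells (2.07 and 5.83 CPM). The difference was 2.20 (SE 0.54, adjusted p = 0.00295).

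*Scn7a* departed from the rest of its family. It encodes Nax, a channel of this family known for sensing extracellular sodium rather than voltage, and its leading class was ependymal-like cells, the ciliated lining of the ventricle. There it read 15 and 8 UMIs, or 23.1 and 14.6 CPM, against 1 and 6 UMIs in neuron-like cells (0.648 and 4.82 CPM). The ependymal-like UMIs lay in 6 of 85 and 3 of 64 cells, so most cells of the class showed none. OPC-like and oligodendrocyte-like cells gave 1 UMI each, and the other 7 classes gave 0 UMIs, a count that allows up to 3 UMIs in each. The log2 difference from neuron-like cells was 2.51 (SE 0.78, adjusted p = 0.0197), and DESeq2 did not call it (adjusted p = 0.818). All 41 UMIs came from 21 cells, and 8 of them lay in 4 library 1 cells of the unnamed cluster led by *Dcn*, at 44.7 CPM, which entered no test and had 0 UMIs in library 2. *Scn3a*, *Scn2a*, *Scn1a*, *Scn9a* and *Scn7a* lie in this order on chromosome 2, within 1.33 Mb of the GRCm38 build. *Scn7a*, at chr2:66673425-66784914 on the minus strand, is the last of them.

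The other 3 alpha subunits, *Scn4a*, *Scn10a* and *Scn11a*, were too low to test, with 1, 1 and 4 UMIs in all cells. They encode channels best known from skeletal muscle and sensory neurons.

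Of 3 sodium channel beta subunits, each of which could be tested, neuron-like cells led 2. *Scn4b*, encoding a beta subunit that is abundant in striatal projection neurons, read 227 and 256 CPM in neuron-like and 30.9 and 30.6 CPM in mural-like cells, the contractile cells of vessel walls. The log2 difference was 2.73 (SE 0.25, adjusted p = 1.73e-08). *Scn2b* had the same order of classes, with 144 and 187 CPM in neuron-like and 35.3 and 20.8 CPM in mural-like cells, a difference of 2.32 (SE 0.29, adjusted p = 1.47e-06). In mural-like cells *Scn4b* exceeded the mean of the other classes by 2.37 (SE 0.26) and *Scn2b* by 1.88 (SE 0.29), and the genes lie 8324 bases apart on the plus strand of chromosome 9 (*Scn2b* at chr9:45117782-45130070, *Scn4b* at chr9:45138395-45154152).

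*Scn3b* was not led by a class, with 99.1 and 125 CPM in neuron-like and 63.1 and 90.9 CPM in neuroblast-like cells, a difference of 0.45 (SE 0.23, adjusted p = 0.119).

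Of the 10 calcium channel alpha-1 subunits, 9 were tested, and neuron-like cells led 4, the 3 genes of the Cav2 channels of nerve terminals and 1 T-type gene. *Cacna1e*, encoding the R-type channel Cav2.3, read 323 and 265 CPM in neuron-like and 29.1 and 39.0 CPM in OPC-like cells, a log2 difference of 3.16 (SE 0.24, adjusted p = 1.56e-09). *Cacna1b*, encoding the N-type channel Cav2.2 of nerve terminals, read 73.2 and 113 CPM in neuron-like and 33.5 and 40.8 CPM in neuroblast-like cells, a difference of 1.15 (SE 0.26, adjusted p = 0.00135). *Cacna1i*, encoding the T-type channel Cav3.3, read 37.6 and 33.7 CPM in neuron-like and 2.79 and 2.18 CPM in OPC-like cells, a difference of 3.57 (SE 0.50, adjusted p = 6.18e-06). The neuron-like libraries were above both libraries of every other class for each of these genes.

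*Cacna1a*, encoding the P/Q-type channel Cav2.1, was led by neuron-like cells by a small margin. It read 172 and 145 CPM there, 59.6 and 56.2 CPM in microglia-like, 53.0 and 57.0 CPM in OPC-like and 36.7 and 36.2 CPM in macrophage-like cells. The difference from microglia-like cells was 0.83 (SE 0.21, adjusted p = 0.00198). Oligodendrocyte-like cells stood lowest, at 2.82 and 1.21 CPM.

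In the main fit, the L-type and 2 of the T-type genes had no single leading class. With library sizes and no TMM scaling, *Cacna1d* and *Cacna1s* were each led by 1 class. At a resolution of 0.08, *Cacna1c* was led by 1 class. *Cacna1c*, encoding Cav1.2, the L-type channel of smooth muscle, heart and neurons, read 73.2 and 67.4 CPM in neuron-like, 61.7 and 75.8 CPM in neuroblast-like and 69.8 and 56.8 CPM in mural-like cells, so the libraries of these 3 classes overlapped. Neuron-like cells differed from neuroblast-like cells by -0.05 (SE 0.22, adjusted p = 0.979) and from mural-like cells by -0.09 (SE 0.23, adjusted p = 0.795). The other 8 classes lay below, at most at 14.3 and 15.9 CPM in OPC-like cells. *Cacna1h*, encoding the T-type channel Cav3.2, read 62.2 and 51.4 CPM in neuron-like and 54.8 and 47.0 CPM in mural-like cells, and these classes differed by -0.08 (SE 0.30, adjusted p = 0.869). In no other class did it exceed 10.9 CPM.

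*Cacna1d*, encoding the L-type channel Cav1.3, read 70.6 and 100 CPM in neuron-like, 36.5 and 59.5 CPM in microglia-like and 43.3 and 22.6 CPM in macrophage-like cells. Its difference between neuron-like and microglia-like cells was 0.22 (SE 0.26, adjusted p = 0.482). *Cacna1g*, encoding the T-type channel Cav3.1, read 14.0 and 18.4 CPM in OPC-like, 15 and 15.3 CPM in mural-like and 10.4 and 18.5 CPM in neuron-like cells. OPC-like cells differed from mural-like cells by -0.24 (SE 0.41, adjusted p = 0.683) and from neuron-like cells by 0.08 (SE 0.39, adjusted p = 0.891).

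*Cacna1s*, encoding Cav1.1, the channel known from skeletal muscle, was not seen at more than 1.17 CPM in neuron-like or neuroblast-like cells. It read 26.2 and 11 CPM in ependymal-like and 4.65 and 5.66 CPM in microglia-like cells, and these classes differed by 1.13 (SE 0.59, adjusted p = 0.122). Against the mean of the other classes it was higher in both, by 3.93 (SE 0.47, adjusted p = 8.28e-06) in ependymal-like and by 2.69 (SE 0.32, adjusted p = 1.61e-06) in microglia-like cells. *Cacna1f*, encoding Cav1.4 of the retina, was too low to test, with 12 UMIs in all. Its highest class was microglia-like cells, at 0.845 and 1.09 CPM.

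**Figure D3:**
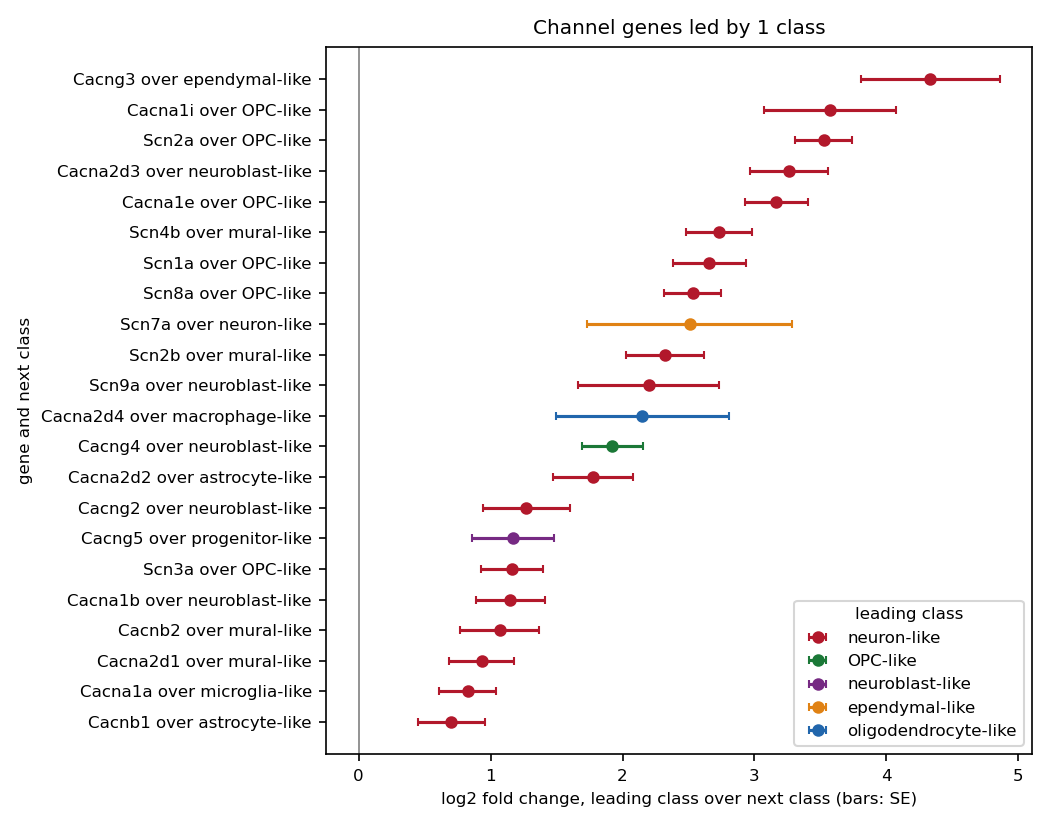
Log2 fold change of the leading class over the class with the next highest level, with SE as bars, for the 22 channel genes led by 1 class, coloured by leading class. The largest margin is that of *Cacng3* at 4.33 and the smallest that of *Cacnb1* at 0.70, both in neuron-like cells.

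Of the 4 alpha-2-delta genes, neuron-like cells led 3 and oligodendrocyte-like cells led the other. *Cacna2d3* read 388 and 346 CPM in neuron-like and 30.3 and 43.1 CPM in neuroblast-like cells, a difference of 3.26 (SE 0.29, adjusted p = 1.96e-08). *Cacna2d2* read 117 and 244 CPM in neuron-like and 32.5 and 53.1 CPM in astrocyte-like cells, a difference of 1.77 (SE 0.30, adjusted p = 5.42e-05). *Cacna2d1*, whose product binds gabapentin, read 211 and 218 CPM in neuron-like and 77.8 and 114 CPM in mural-like cells, and its margin was the narrowest of the 3 at 0.93 (SE 0.24, adjusted p = 0.00331).

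*Cacna2d4* was the gene led by oligodendrocyte-like cells. It gave 134 and 198 UMIs there, 9.96 and 14.1 CPM, and 2 and 1 UMIs in macrophage-like cells, the next class, at 3.33 and 2.26 CPM. The difference was 2.15 (SE 0.66, adjusted p = 0.0113), and DESeq2 did not call it (adjusted p = 0.1). In neuron-like cells it gave 1 and 2 UMIs. A UMI of it was seen in 8.36% (95% interval 6.80 to 10.1%) and 12.1% (10.3 to 14.2%) of oligodendrocyte-like cells, against 0.262% (0.00663 to 1.45%) and 0.386% (0.00977 to 2.13%) of neuron-like cells. Their median depths were 11117 and 12210 UMIs and 2468 and 2632 UMIs. The class holds a cluster of 724 cells with a median of 22.2% mitochondrial UMIs, and with cells at or above 20% left out it still led.

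All 4 calcium channel beta genes, whose products sit on the inner face of the channel and carry it to the membrane, were tested. *Cacnb2* read 143 and 112 CPM in neuron-like and 50.4 and 53.6 CPM in mural-like cells, a difference of 1.07 (SE 0.30, adjusted p = 0.00556). *Cacnb1* read 44.7 and 34.5 CPM in neuron-like and 20.3 and 19.9 CPM in astrocyte-like cells, a difference of 0.70 (SE 0.25, adjusted p = 0.0271) that missed the threshold without the library block (adjusted p = 0.0618). *Cacnb3* and *Cacnb4* had no single leading class. *Cacnb3* was highest in neuroblast-like cells, at 60.7 and 59.5 CPM. *Cacnb4* was highest in neuron-like cells, at 183 and 191 CPM, and next in oligodendrocyte-like cells, at 63.6 and 96.0 CPM.

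The gamma genes were divided among 3 leading classes. *Cacng2*, encoding stargazin, and *Cacng3* are known as partners of AMPA receptors at synapses, and neuron-like cells led both. *Cacng3* read 116 and 97.2 CPM there and 6.16 and 3.65 CPM in ependymal-like cells, a difference of 4.33 (SE 0.53, adjusted p = 1.77e-06). *Cacng2* read 82.9 and 89.1 CPM in neuron-like and 36.2 and 29.1 CPM in neuroblast-like cells, a difference of 1.27 (SE 0.33, adjusted p = 0.0034).

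*Cacng4* was led by OPC-like cells. It read 427 and 549 CPM there, 106 and 119 CPM in neuroblast-like and 91.3 and 66.6 CPM in neuron-like cells, and the difference from neuroblast-like cells was 1.92 (SE 0.23, adjusted p = 9.3e-07). A UMI of it was seen in 73.4% (95% interval 68.8 to 77.7%) and 74.7% (70.3 to 78.8%) of OPC-like cells, and in 2.24% (1.45 to 3.29%) and 1.95% (1.2 to 3%) of microglia-like cells, with median depths of 7476 and 7326 UMIs and of 6930 and 5505 UMIs. *Cacng5*, its neighbour on chromosome 11, was led by neuroblast-like cells, at 59.7 and 51.3 CPM against 27.3 and 20.4 CPM in progenitor-like cells, a difference of 1.17 (SE 0.31, adjusted p = 0.00753). Without the glia-led subclusters of neuron-like, neuroblast-like and mural-like cells the difference was 0.88 and missed the threshold (adjusted p = 0.0828). The neuroblast-like cells left out there include the 162 counted for *Sox9* alone. The third gene of that row, *Cacng1*, gave 17 UMIs in all and was not tested.

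*Cacng7* and *Cacng8* had no single leading class, and *Cacng6*, which lies with them within 102.7 kb on chromosome 7, gave 5 UMIs in all and was not tested. *Cacng8* had its highest mean level in astrocyte-like cells, at 20.3 and 21.8 CPM, but in library 2 OPC-like cells stood higher. By edgeR these classes differed by 0.46 (SE 0.26, adjusted p = 0.178). *Cacng7* was highest in OPC-like cells, and it was the channel gene that differed most between the libraries. It read 24.2 CPM in library 1 and 94.7 CPM in library 2 in OPC-like cells, 10.6 and 49.1 CPM in oligodendrocyte-like cells and 9.33 and 27.7 CPM in astrocyte-like cells, and library 2 was above library 1 in 11 of the 11 classes. The mean log2 difference between libraries over classes was 1.38, larger in size than that of 99.7% of the genes tested, whose median was -0.04.

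**Figure D4:**
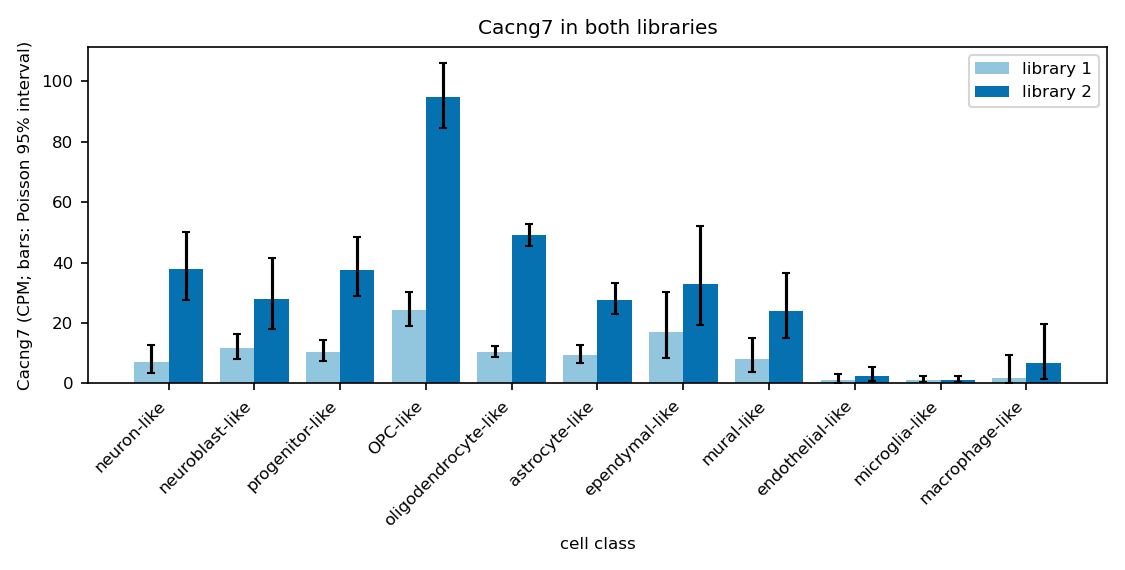
Level of *Cacng7* in CPM in each cell class in library 1 (light bars) and library 2 (dark bars), with exact Poisson 95% intervals that cover counting error only. The dark bar is the taller in each class, by the most in CPM in OPC-like cells at 94.7 against 24.2, and by hardly anything in microglia-like cells at 1.28 against 1.27.

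Shares of cells with a UMI showed where the lower levels lay. *Scn2a* was seen in 50% (95% interval 44.9 to 55.1%) and 73.4% (67.5 to 78.6%) of neuron-like cells, although their median depths were only 2468 and 2632 UMIs. In microglia-like cells, with 6930 and 5505 UMIs, it was seen in 2.15% (1.38 to 3.18%) and 1.56% (0.896 to 2.52%). *Cacna1a* was seen in 28.3% (25.7 to 31.0%) and 23.7% (21.2 to 26.5%) of microglia-like cells, and in 2.22% (1.44 to 3.26%) and 1.37% (0.769 to 2.25%) of oligodendrocyte-like cells, the deeper class. Cells with at least 1000 UMIs were also thinned to 1000 UMIs, and shallower cells were left out, so these shares are over fewer cells. Among the thinned cells the shares were 29.4% and 44.0% for *Scn2a* in neuron-like cells. They were 5.89% and 5.68% for *Cacna1a* in microglia-like cells, against 0.466% and 0.184% for *Cacna1a* in oligodendrocyte-like cells. These intervals cover counting error only. The neuron-like shares before thinning include all glia-led cells, 191 of 382 in library 1 and 53 of 259 in library 2. Shares without these cells were not counted.

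Genes past the threshold above the mean of the other classes are named here for mural-like and microglia-like cells, and in part for OPC-like cells. The 7 that were higher in mural-like cells, 21.9% of those tested against 19.1% of all genes, were *Cacna1h* (log2 3.70, SE 0.27), *Cacna1c* (3.34, SE 0.20), *Cacnb2* (2.96, SE 0.27), *Cacna1g* (2.80, SE 0.35), *Cacna2d1* (2.42, SE 0.20), *Scn4b* and *Scn2b*. The 4 in microglia-like cells, 12.5% against 33.6%, were *Cacna1s*, *Cacna1d*, *Cacnb2* and *Cacna1a*. OPC-like cells had 4 of 6 sodium channel alpha subunits above the mean, *Scn3a*, *Scn1a*, *Scn2a* and *Scn8a*, and 6 of 9 calcium channel alpha-1 subunits. Of all genes tested, 25.8% were higher there.

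Within 3 of the classes, subclusters named from markers were compared in a second fit of 14350 genes. Neuroblast-like cells were subclustered too, but their subclusters were left unnamed by the marker rule and were not compared. A subcluster of 150 of them, 127 in library 2, had a median of 1048.5 UMIs and of 14.5% mitochondrial UMIs. The widest contrast lay in the oligodendrocyte lineage, between 614 precursor-like cells, marked by *Pdgfra* and *Cspg4*, and 179 new oligodendrocyte-like cells, marked by *Enpp6* and *Bmp4*. Of the 32 channel genes, 20 were higher in precursor-like cells, where 16.3% of all genes tested were, and 0 were higher in new oligodendrocyte-like cells, where 14.7% of all genes were. The 0 held without adjustment in edgeR and in DESeq2, also 0. The median log2 difference was 2.13, and 0.04 over all genes tested.

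Of the 6 sodium channel pores tested, 3 were among them. *Scn1a* went from 44.4 and 50.7 CPM in precursor-like cells to 0.770 and 4.17 CPM in new oligodendrocyte-like cells, a difference of 3.69 (SE 0.45, adjusted p = 7.64e-07). *Scn3a* read 118 and 139 against 12.3 and 17.7 CPM, a difference of 2.78 (SE 0.30, adjusted p = 1.01e-07), and *Scn2a* 67.7 and 73.4 against 8.47 and 9.37 CPM, a difference of 2.61 (SE 0.29, adjusted p = 1.28e-07). The libraries of the 2 subclasses did not overlap in any of these. *Scn8a*, in contrast, read 40.1 and 44.3 against 41.6 and 41.7 CPM, a difference of -0.24 (SE 0.27, adjusted p = 0.559). *Scn7a*, at 0 and 0 against 0.770 and 0 CPM, did not pass the test, and *Scn9a* had 0 UMIs in both subclasses. *Cacng4* read 659 and 756 against 90.1 and 107 CPM (log2 2.58, SE 0.23, adjusted p = 4.26e-09), and *Cacna1e* 47.1 and 53.2 against 3.85 and 1.04 CPM (log2 3.63, SE 0.40, adjusted p = 1.66e-07).

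The remaining 15 genes higher in precursor-like cells were *Cacng8*, *Cacna2d2*, *Cacng5*, *Cacna1h*, *Scn2b*, *Cacna2d3*, *Scn3b*, *Cacna1g*, *Cacnb2*, *Cacna1d*, *Cacna1b*, *Cacna1c*, *Cacna1a*, *Cacna2d1* and *Cacnb1*, with log2 differences from 1.2 to 3.88. *Cacnb1* missed the threshold without the library block (adjusted p = 0.0532). Depth was lower in 206 of the precursor-like cells, led by the haemoglobin genes *Hbb-bs* and *Hba-a1*, which had a median of 1903.5 UMIs, than in the new oligodendrocyte-like cells, which had a median of 12203.

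**Figure D5:**
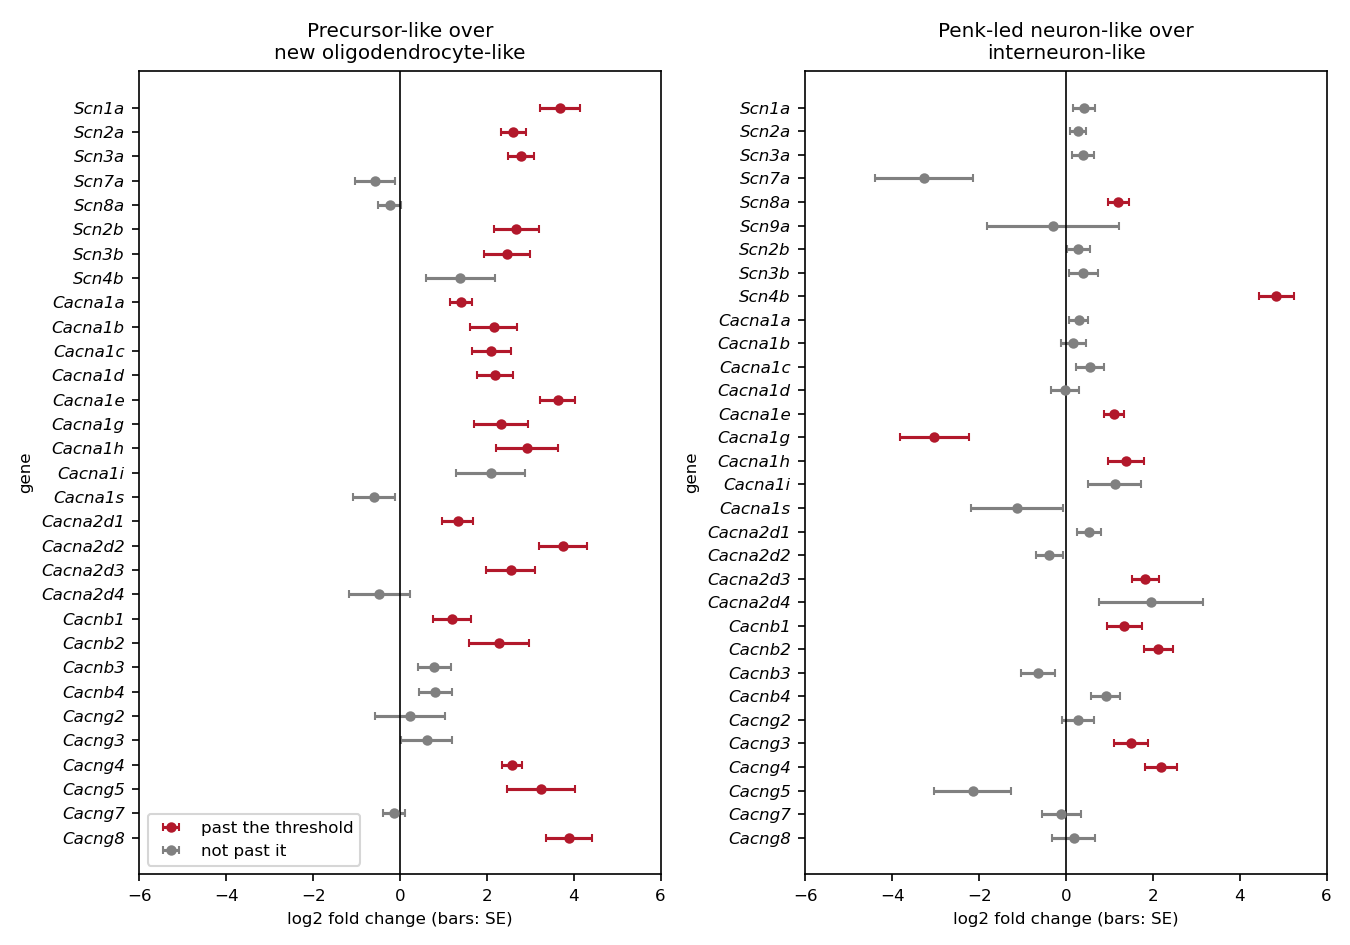
Log2 fold change with SE as bars for the tested channel genes, between precursor-like and new oligodendrocyte-like cells (left) and between neuron-like cells led by *Penk* and interneuron-like cells (right), with genes past the threshold in red and genes with 0 UMIs in both subclasses left out. The red points lie to the right on the left side, 20 of them, and on the right side *Scn4b* stands out at 4.84 and *Cacna1g* lies to the left at -3.03.

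Neuron-like cells split into a subcluster of 209 cells led by *Gpr6*, *Penk* and *Adora2a*, genes known from indirect-pathway projection neurons, and 188 interneuron-like cells. The first also held *Drd1*, of direct-pathway neurons, at 311 and 401 CPM, so it is called here *Penk*-led, after 1 of its leading genes. The haemoglobin genes *Hba-a2* and *Hba-a1* were among its 10 leading genes too. The second was mixed as well, since it pooled subclusters of 123 and 65 cells and held *Drd1* at 126 and 123 CPM. Its interneuron markers also differed between libraries 1 and 2. *Sst* stood at 554 and 3383 CPM, *Vip* at 0 and 31.3 CPM, and *Th*, the other way, at 235 and 22.6 CPM. Of the 32 channel genes, 9 were higher in *Penk*-led cells (background 6.18%) and 1 in interneuron-like cells (5.03%).

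*Scn4b* made the largest difference, with 316 and 485 CPM in *Penk*-led and 29.4 and 8.69 CPM in interneuron-like cells (log2 4.84, SE 0.40, adjusted p = 1.03e-08). *Cacng4* read 118 and 113 against 33.6 and 26.1 CPM (log2 2.19, SE 0.37, adjusted p = 0.000224). *Cacnb2* read 223 and 184 against 46.2 and 62.6 CPM (log2 2.13, SE 0.34, adjusted p = 0.000114). *Cacna2d3* read 560 and 514 against 147 and 196 CPM (log2 1.83, SE 0.31, adjusted p = 0.00027). None of these overlapped between the subclusters. *Scn8a* (log2 1.21, SE 0.25) and *Cacna1e* (1.10, SE 0.22) were higher by less, and *Cacng3* (1.5, SE 0.39), *Cacna1h* (1.38, SE 0.42) and *Cacnb1* (1.34, SE 0.41) were near the threshold, which each of these 3 missed in DESeq2 and without the library block.

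The gene that went the other way was *Cacna1g*, at 0 and 7.53 CPM in *Penk*-led and 42.0 and 33.0 CPM in interneuron-like cells (log2 -3.03, SE 0.79, adjusted p = 0.0127). These were few UMIs, 0 and 4 against 10 and 19. In the vessel wall, 149 pericyte-like and 63 smooth muscle-like cells differed past the threshold in 1 of the 32 genes, *Scn4b*, at 8.36 and 3.67 against 32 and 43.0 CPM (log2 -2.75, SE 0.75, adjusted p = 0.0118), where 7.83% of all genes tested were higher in smooth muscle-like cells. That gene had few UMIs there, 3 and 1 against 13 and 13. The count of channel genes higher in pericyte-like cells was 0 of 32 (background 6.47%), as it was without adjustment in edgeR and in DESeq2.

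Beside the channel genes, 3 lists of 24 genes in all were read, and each gene could be tested. The lists hold partners of sodium channels, partners of calcium channels, and the sodium leak channel complex, which is a separate channel. Of 10 partners of sodium channels, 4 were led by 1 class, where 40.3% of all genes tested were, so this count is at the background. Neuron-like cells led *Fgf14*, an intracellular regulator of sodium channels, and *Sptbn4*, the spectrin of the axon initial segment, which read 83.6 and 80.3 CPM there and 8.37 and 7.79 CPM in OPC-like cells (log2 3.32, SE 0.30). *Ank3*, encoding ankyrin-G, the scaffold that clusters sodium channels, was led by oligodendrocyte-like cells, at 650 and 801 CPM against 402 and 434 CPM in neuron-like cells (log2 1.53, SE 0.32, adjusted p = 0.000289). With library sizes in place of TMM this difference was 0.80, and DESeq2 did not call it (adjusted p = 0.0579). *Cntn1*, an axonal cell-adhesion molecule, was led by OPC-like cells, at 625 and 917 CPM against 234 and 365 CPM in neuron-like cells (log2 1.26, SE 0.26), and DESeq2 did not call it either (adjusted p = 0.0758). *Fgf14* missed the threshold without the glia-led subclusters of the neuron-like, neuroblast-like and mural-like cells (adjusted p = 0.0813).

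Of 10 partners of calcium channels, 6 were led by 1 class (background 40.3%). Neuron-like cells led *Rims1*, *Rims2* and *Rimbp2*, which tether calcium channels at the release site, and *Rem2*. DESeq2 did not call *Rem2* (adjusted p = 0.086), and *Rims1* missed the threshold at a resolution of 0.08 (adjusted p = 0.119). Mural-like cells led *Rem1* and *Rrad*, which belong with *Rem2* to the small GTPases that hold calcium channels in check. *Rem1* read 98.1 and 79.8 CPM there and 2.59 and 1.61 CPM in neuron-like cells (log2 5.21, SE 0.47, adjusted p = 2.1e-08). *Rrad* read 154 and 76.5 CPM and, in macrophage-like cells, 6.67 and 24.9 CPM (log2 2.78, SE 0.50, adjusted p = 0.000173). Of 4 genes of the sodium leak channel complex, 3 were led by 1 class (background 40.3%). Neuron-like cells, which led 5.61% of all genes tested, led each of them, *Nalcn*, the pore, with *Unc79* and *Unc80*. *Nalcn* had the smallest margin, at 68.0 and 93.9 CPM against 44.6 and 68.9 CPM in OPC-like cells (log2 0.61, SE 0.24, adjusted p = 0.0474), and it missed the threshold under 6 of the alternative settings. *Unc79* missed it without the library block (adjusted p = 0.0563).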

How the data were processed

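Single cells of untreated mouse striatum were measured in 2 libraries, replicates 1 and 2. The authors deposited UMI counts for each gene in each cell, not normalized and made with Cell Ranger 4.0 per the submitters' processing notes on mm10. The methods of the study name another version. How strand was handled is not given in the sources used here, and 19 of the 38 channel genes overlap a gene on the opposite strand. Kept were cells with 300 or more detected genes. Only the clustering was limited to genes seen in more than 3 cells. Scrublet (scanpy 1.11.5, expected doublet rate 6%) removed 96 and 159 cells as doublets, 1.39% and 2.96%, leaving 12007 cells.

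Cells were integrated and clustered with Seurat 5.3.0 in R 4.3.3, without the channel and partner genes. The planned resolution was the study's 0.08, and after the counts had been examined it was set to 0.32, which set 451 progenitor-like and 149 ependymal-like cells apart from a neuroblast cluster. Neuron-like cells went from 365 to 641 by 276 cells of an astrocyte cluster, of which 208 lie in glia-led and 67 in interneuron-like subclusters. The change also moved 184 cells from the oligodendrocyte-like to the OPC-like class, and 118 mural-like cells became unnamed. A cluster was named when at least 3 markers of a class were raised at least 2-fold and none of another class prevailed among its leading genes. The 97 erythroid-like cells and 118 cells of 2 unnamed clusters were not fitted.

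Counts summed per library and class (22 sums, 10 residual degrees of freedom) were fitted in edgeR 4.0.16 with TMM factors, filterByExpr, a prior count of 2 and the library as a block, since the classes of each library share a suspension. Benjamini-Hochberg adjustment was done within each contrast, with a threshold of 0.05. On simulated sums of 15517 genes for neuron-like against the other classes, 51% of 2-fold and 89% of 4-fold changes were recovered, with 10 false calls. The simulated classes shared 1 profile and 1 fixed dispersion, and only genes above a low level were changed. These rates therefore do not carry over to sparse genes or to classes that differ as widely as the real ones. CPM carry exact Poisson and shares exact binomial 95% intervals. Values in full are given for each gene led by 1 class and for each tested pore-forming subunit, and other subunits are given by their highest class. Of the 40 channel genes, 2 are not reported here. The members and lists were chosen with earlier results of these data known. Alternatives were DESeq2 1.42.0, library sizes alone, no block, no filter on genes, at least 500 genes or 1000 UMIs per cell, under 20% mitochondrial UMIs, doublets kept, leaving out each library, thinning to 1000 UMIs and, added after seeing the data, resolution 0.08 and leaving out the glia-led subclusters, of neuron-like cells alone or of neuron-like, neuroblast-like and mural-like cells. Positions are from a GRCm38 annotation.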

Additional observations from a re-analysis of the deposited data

Results flagged for a closer look

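Channel gene UMIs were also seen in cells that entered no comparison. Sums below are over all reported channel genes and were not set beside those of a fitted class. A count of 0 allows up to 3 UMIs of a single gene. In the clusters of 97, 63 and 55 cells below, 6, 11 and 10 channel genes had more than that. The cluster of 97 cells led by *Hbb-bt*, *Hba-a2* and *Hba-a1*, which are haemoglobin genes, held 51 channel gene UMIs, or 64.7 CPM, with *Scn2a* first at 10 UMIs. The cluster of 63 cells led by *Rgs5*, *Vtn* and *Higd1b*, genes of pericytes, carried endothelial markers too and was left unnamed. It held 138 channel gene UMIs, or 130.5 CPM, with *Cacna2d1* at 19 UMIs, *Cacna1c* at 18 and *Cacna1h* at 16. The cluster of 55 cells led by *Dcn*, *Igfbp2* and *Slc6a13* held 112 channel gene UMIs, or 367 CPM, with *Cacna2d1* at 23 UMIs, *Cacng4* at 14 and *Cacna1e* at 9. These clusters were not tested. With 2 libraries, no value of a single library could be called an outlier.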

How the results depend on the processing

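Of 22 channel genes led by 1 class, all 22 kept that class with library sizes alone, with no filter on genes, with cells of at least 500 genes or 1000 UMIs, with cells under 20% mitochondrial UMIs, with doublets kept and without glia-led neuron-like subclusters. DESeq2 lost *Scn7a* and *Cacna2d4*, the fit without the replicate block lost *Cacnb1*, which left 21, resolution 0.08, which formed no ependymal-like or progenitor-like class, lost *Scn7a*, and leaving out the glia-led subclusters of neuron-like, neuroblast-like and mural-like cells lost *Cacng5*. With doublets kept, channel genes higher in astrocyte-like cells became 13 in place of 7, those lower there 2 in place of 9, those lower in endothelial-like cells 18 in place of 11 (17 with DESeq2) and those lower in ependymal-like cells 2 in place of 0. At resolution 0.08 they became 12 higher and 4 lower in astrocyte-like cells, 7 lower in place of 0 in neuroblast-like cells and 0 higher in place of 1 in endothelial-like cells (edgeR, 1 without adjustment). Both settings make the classes anew. Genes lower in ependymal-like cells numbered 1 with no filter on genes and 1 without the glia-led subclusters. Genes higher in macrophage-like cells, 2 in all, numbered 1 with library sizes alone, 1 without the replicate block and 1 without the glia-led subclusters. With no filter on genes, 2 in place of 1 differed between pericyte-like and smooth muscle-like cells. The cause of these changes was not tested. The other counts stayed within 1.5 times of the main value. Some genes without a leading class in the main fit gained one under other settings. With library sizes alone these were *Cacna1d*, *Cacna1s*, *Cacnb4* and *Cacng7*, and at resolution 0.08 *Scn3b*, *Cacna1c* and *Cacnb4*. With doublets kept they were *Scn3b*, *Cacnb3* and *Cacnb4*. *Cacnb4* gained one with no filter on genes, *Cacnb3* under 20% mitochondrial UMIs and *Scn3b* with at least 1000 UMIs.

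Thinning to 1000 UMIs drops most UMIs of a deep cell, and cells with fewer UMIs were left out of it. The share with a *Scn2a* UMI was 50% and 73.4% of all neuron-like cells, and 29.4% and 44.0% of those thinned. That with *Cacna1a* was 28.3% and 23.7% of all microglia-like cells, and 5.89% and 5.68% of those thinned. Each pair compares different sets of cells. Library sizes alone moved the median of all genes by -0.51 in oligodendrocyte-like, -0.40 in microglia-like, 0.36 in OPC-like and 0.26 in neuron-like cells. Of the channel genes past the threshold, *Scn8a* in oligodendrocyte-like cells changed sign with it. Macrophage-like cells had 3 higher and 5 lower with DESeq2, and 1 and 8 with library sizes alone, in place of 2 and 7. Leaving out a library removes the test, and 71 of 71 differences past the threshold kept their sign in the library that remained. These differences had been picked by tests on both libraries, so a shared sign was nearly given in advance. The value of 1 library was a log2 difference of CPM without TMM scaling, set against the main fold change with it. The values differed by more than the SD between libraries in 32 cases without library 1 and in 39 without library 2. These counts include the change of scale, so they do not measure the loss of a library alone. Outside the 71 differences, that of *Cacna1c* between neuron-like and neuroblast-like cells changed sign between the libraries. Few UMIs limit *Scn7a*, *Scn9a*, *Cacna2d4* and *Cacna1s*, and, between subclasses, *Scn4b* in mural-like and *Cacna1g* in neuron-like cells.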

Other observations

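Other classes also held channel genes above the mean of the remaining classes, and several genes were higher in more than 1 of them. As a share of the 32 genes tested, those higher were 43.8% in neuroblast-like cells against 23.9% of all genes, and at or below the share of all genes in astrocyte-like (21.9% and 28.2%), progenitor-like (15.6% and 26.1%), oligodendrocyte-like (15.6% and 34.8%) and endothelial-like cells (3.12% and 26.5%). Neuroblast-like cells are named after the young migrating neurons of the ventricular wall, but 564 of these 1067 cells lay in glia-led subclusters. In this class the 14 higher genes began with *Cacng5* (log2 3.88, SE 0.25), *Cacna1b* (3.34, SE 0.24), *Scn3b* (3.31, SE 0.19), *Cacna1c* (3.30, SE 0.18) and *Scn3a* (2.96, SE 0.22). In astrocyte-like cells the 7 higher genes, which became 13 with doublets kept and 12 at a resolution of 0.08, were *Cacng8* (2.94, SE 0.22), *Cacna2d2* (2.59, SE 0.25), *Cacnb1* (1.68, SE 0.19), *Scn8a* (1.45, SE 0.18), *Cacna2d4*, *Cacna1d* and *Cacng7*. In progenitor-like cells, marked by *Top2a* and *Mki67*, the 5 were *Cacng5* (2.59, SE 0.27), *Cacng4* (1.37, SE 0.20), *Cacna1b* (1.07, SE 0.25), *Cacng7* (0.77, SE 0.21) and *Scn8a* (0.65, SE 0.21). The gene higher in endothelial-like cells was *Cacna1e* (1.15, SE 0.23), at 15.5 and 8.16 CPM, which missed the threshold at a resolution of 0.08. The summed erythroid markers of that class were 7090 and 165 CPM, and their part in this difference was not tested. In oligodendrocyte-like cells *Cacna2d4* (3.83, SE 0.23) and *Cacnb4* (2.88, SE 0.18) came first, followed by *Cacng7* (1.65, SE 0.16) and *Cacna2d1* (1.15, SE 0.17).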
